A study of Mus musculus with 32 samples.

Results

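The 33 genes described here encode the enzymes of glycolysis and of the pentose phosphate pathway, the carriers of glucose and lactate, the kinases and the subunit that set the entry of pyruvate into mitochondria, and the hypoxia inducible factor HIF-1α with the hydroxylases that control it. They were chosen by name from a list of these pathways, with earlier results of these data known. All 33 listed genes were found among the 18588 genes of the expression table. Microglia RNA was sequenced from rTg4510 mice and from WT littermates (labelled 129/FVB F1) at 2, 4, 6 and 8 months of age, all animals being female. The rTg4510 mouse carries human tau with the P301L mutation under a tetracycline responsive promoter, switched on by a transactivator that the CaMKIIα promoter drives in forebrain neurons, so the transgene is not directed to microglia, and the WT littermates carry neither transgene. Each library came from the pooled forebrains of 8 to 10 animals, from which cells were taken with CD11b MicroBeads, and CD11b is carried by other myeloid cells as well. The comparisons used 4 libraries of each genotype at 2 and 6 months and 3 of each at 4 and 8 months, after the authors had excluded 4 libraries that failed quality control.

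The values are log2 gene signals, centred so that the median gene of every library stood at 5.63, and no read totals are given. A gene's value can therefore be followed across libraries, but values of different genes are not compared here. The CD11b-selected cells carried the markers of microglia, with Cx3cr1 between 13.02 and 14.05, Csf1r between 11.89 and 12.45 and Aif1 between 5.85 and 6.60 in the 28 libraries. The summed signal of 8 microglia markers lay between 14.71 and 15.18 on the log2 scale in WT and between 14.47 and 14.93 in rTg4510. It overlapped at 2 months, and at 4, 6 and 8 months every rTg4510 library was below every WT library of its age. The 8 were not alike. By the rule given below, Tmem119 was down-regulated at these 3 ages (log2 fold changes of -0.74, -0.78 and -0.72) and Itgam at 6 months (-0.62). C1qa was up-regulated at 6 and 8 months (0.70 and 0.73). Traces of other cells were present. The 8-month replicate 1 of WT held the highest summed signal of 5 astrocyte markers (11.09) and of 5 oligodendrocyte markers (10.32) of the 28 libraries.

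Glycolysis splits glucose into pyruvate in the cytosol, and lactate dehydrogenase turns pyruvate into lactate, which leaves the cell through monocarboxylate carriers. The pentose phosphate pathway branches off after the hexokinase step and yields NADPH and ribose. HIF-1α is marked for degradation by prolyl hydroxylases when oxygen is present, and when it is stable it binds DNA with ARNT and raises the transcription of many glycolytic genes. In macrophages and microglia, activation by inflammatory stimuli is known to go along with a shift towards glycolysis.

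Genes of the pathway were up-regulated in rTg4510 microglia, 2 of them at 2 months and more from 4 months of age on. None of the 33 was down-regulated at any of the 4 ages. Differentially expressed genes (DEGs) had to differ by over 1.5 fold between genotypes at a false discovery rate (FDR), adjusted over all 18588 genes, below 0.05. By this rule 2 of the 33 genes were up-regulated at 2 months (6.06%, beside 1.58% of all genes). At 4 months 15 were up-regulated (45.5%, beside 9.47% of all genes), at 6 months 16 (48.5%, beside 11.3%) and at 8 months 14 (42.4%, beside 10.5%). Down-regulated genes made up 0.403%, 4.33%, 8.54% and 5.37% of all genes at these ages. By the FDR alone, 12, 20, 22 and 20 members were higher in rTg4510 at 2, 4, 6 and 8 months (beside 4.76%, 14.1%, 19.1% and 16% of all genes), and 1, 0, 3 and 3 were lower (beside 1.27%, 9.1%, 14.9% and 9.78%). All rTg4510 libraries lay above all WT libraries of the age for 13, 22, 20 and 21 members (beside 7.49%, 19.1%, 18.2% and 21.2% of all genes), and all below them for 1, 2, 2 and 3 members (beside 3.51%, 17.5%, 14.6% and 15.5%). The median log2 fold change of the 33 genes was 0.20, 0.39, 0.53 and 0.48 from 2 to 8 months, while the median of all genes lay between -0.04 and 0.01. Because the list was chosen with earlier results of these data known, these shares describe it and are not an independent test. In these bulk samples, fewer cells of a type and less RNA per cell cannot be told apart.

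The DEGs were unevenly spread along the pathway, as the plot of fold changes by gene shows. The 14 genes called at each of 4, 6 and 8 months were Gpi1, Pfkfb3, Aldoa, Tpi1, Gapdh, Pgk1, Pgam1, Eno1, Pkm, Ldha, Slc16a1, Slc16a3, Hif1a and Egln3. Pfkl was called at 4 months, Bnip3 and Pdk3 at 6 months, and 16 genes at no age. The 3 hexokinases and the 5 genes of the pentose phosphate pathway were among those 16.

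**Figure D1:**
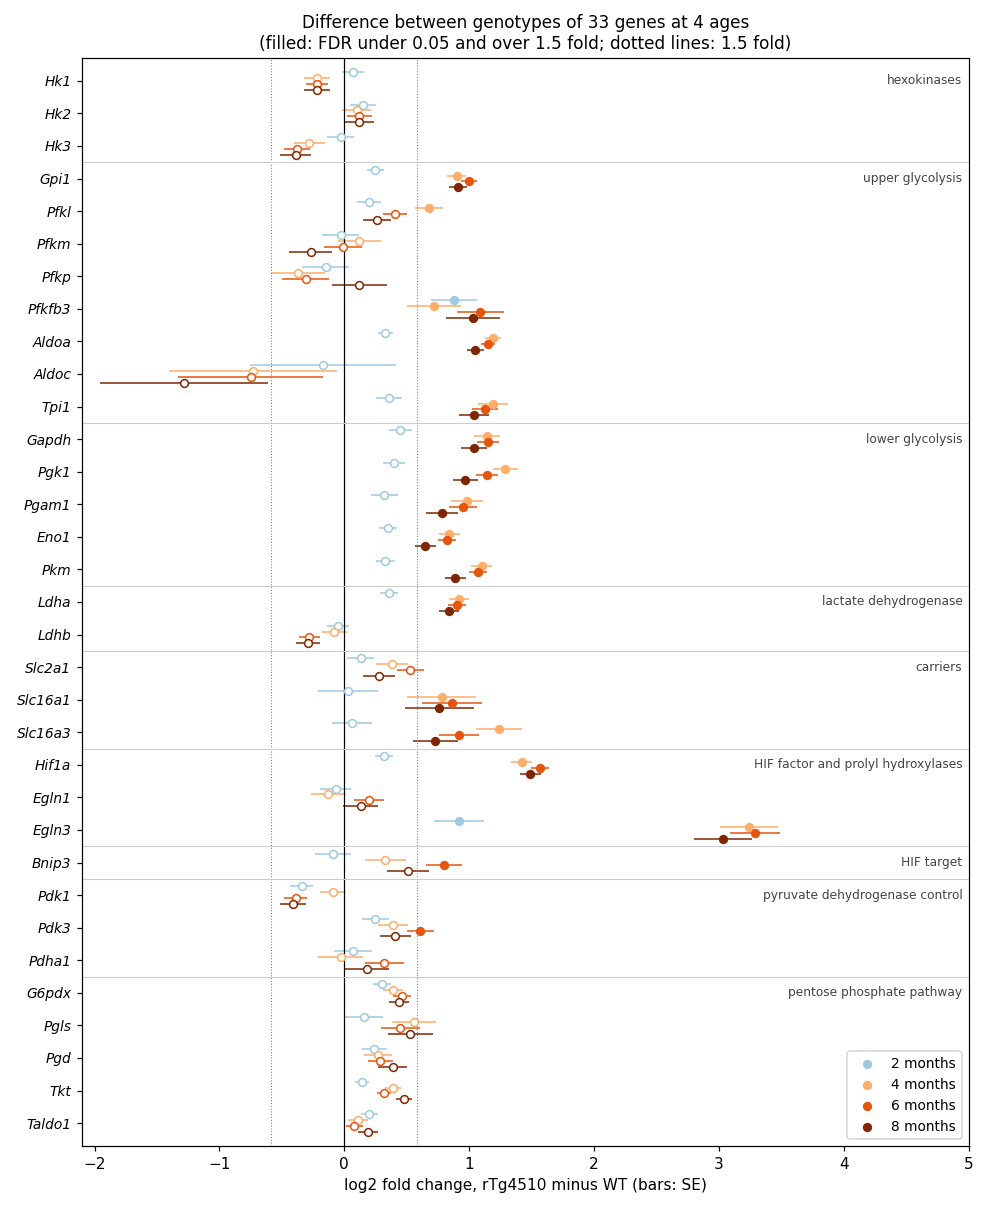
Log2 fold change between rTg4510 and WT microglia (horizontal axis, with SE) of the 33 genes, grouped by role, at 2, 4, 6 and 8 months of age. Filled points passed an FDR under 0.05 and 1.5 fold; the run from Gpi1 to Ldha moved to between 0.65 and 1.29 from 4 months on, apart from Pfkl, Pfkm, Pfkp and Aldoc, while the hexokinases and Ldhb stayed near or below 0.

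Since HIF-1 binds DNA at sites with the core ACGTG, the promoter windows of these genes were searched for those letters. The windows hold 250 bases before and 50 after a transcript start, from RefSeq on GRCm38.p6, and all 33 genes had at least 1 (47 windows in all). ACGTG was counted on both strands, so that the palindrome CACGTG counts as 2 overlapping matches. At least 1 match was found in 11 of the 14 genes called at 4, 6 and 8 months (78.6%), in 10 of the other 19 (52.6%) and in 28% of the 11802 table genes with a window. The 33 genes were listed by pathway, known HIF targets among them, and the 14 were picked by their calls. Their shares beside that of the table genes are therefore a description and not a test. A gene with more windows has more places for a match. Counted by window, the shares were 61.9% of 21, 42.3% of 26 and 24.3% of 14904 windows. With GCGTG, the other core that HIF-1 is known to bind, counted as well, the order was the other way: 12 of the 14 genes (85.7%), 19 of the other 19 (100%) and 64% of the table genes held a match. Both cores hold a CG dinucleotide, and the windows differ in these: the median was 24 for the 14 genes and 19 both for the other members and for the table genes. The windows of 5 up-regulated genes are shown, with the matches in capitals: Egln3 as the gene with the largest difference, Ldha as the one with the most matches, Slc16a3 and Pgk1 with 2 matches each, and Gpi1 with none. Where a gene has several windows, the one with the most matches is given.
Egln3: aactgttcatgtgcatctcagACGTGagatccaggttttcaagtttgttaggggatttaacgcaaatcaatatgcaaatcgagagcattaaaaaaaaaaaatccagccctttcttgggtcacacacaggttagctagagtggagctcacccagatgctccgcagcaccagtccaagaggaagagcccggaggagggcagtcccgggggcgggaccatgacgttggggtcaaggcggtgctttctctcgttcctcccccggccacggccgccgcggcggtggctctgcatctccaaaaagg
Ldha: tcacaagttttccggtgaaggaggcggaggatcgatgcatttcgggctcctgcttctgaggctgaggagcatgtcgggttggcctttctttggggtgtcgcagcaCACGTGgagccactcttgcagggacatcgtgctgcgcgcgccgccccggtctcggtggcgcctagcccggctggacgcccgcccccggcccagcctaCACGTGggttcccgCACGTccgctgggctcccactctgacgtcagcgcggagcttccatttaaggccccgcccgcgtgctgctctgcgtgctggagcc
Slc16a3: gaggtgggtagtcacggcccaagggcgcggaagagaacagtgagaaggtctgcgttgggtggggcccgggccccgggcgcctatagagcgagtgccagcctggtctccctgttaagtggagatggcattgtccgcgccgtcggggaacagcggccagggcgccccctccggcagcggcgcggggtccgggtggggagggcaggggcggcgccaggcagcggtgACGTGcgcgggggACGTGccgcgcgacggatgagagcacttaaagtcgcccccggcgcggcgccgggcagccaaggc
Pgk1: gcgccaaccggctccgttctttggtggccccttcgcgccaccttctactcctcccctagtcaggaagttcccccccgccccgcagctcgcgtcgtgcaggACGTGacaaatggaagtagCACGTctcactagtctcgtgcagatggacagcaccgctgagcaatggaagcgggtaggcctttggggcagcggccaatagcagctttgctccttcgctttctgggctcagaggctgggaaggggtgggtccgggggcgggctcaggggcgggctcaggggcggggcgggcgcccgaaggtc
Gpi1: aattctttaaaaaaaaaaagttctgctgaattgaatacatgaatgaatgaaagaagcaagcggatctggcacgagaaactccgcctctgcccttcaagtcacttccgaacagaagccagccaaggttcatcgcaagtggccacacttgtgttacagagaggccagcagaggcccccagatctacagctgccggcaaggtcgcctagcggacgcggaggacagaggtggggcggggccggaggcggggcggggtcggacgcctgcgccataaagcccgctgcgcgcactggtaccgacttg
These windows lie at chr12:54203825-54204124, minus strand (Egln3), chr7:46845554-46845853, plus strand (Ldha), chr11:120948817-120949116, plus strand (Slc16a3), chrX:106186850-106187149, plus strand (Pgk1) and chr7:34230287-34230586, minus strand (Gpi1). The 2 CACGTG palindromes of Ldha begin 145 and 48 bases before the start, and a further match begins 34 bases before it. The pair in Slc16a3 begins 27 and 14 bases, and the pair in Pgk1 150 and 131 bases, before the start. A match is a run of letters and was not tested as a binding site.

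Hif1a, which encodes the oxygen-regulated subunit of HIF-1, was, with Egln3, 1 of the 2 genes with the largest differences from 4 months on. Its signal in the 4 rTg4510 libraries of 2 months was 8.26, 8.22, 8.49 and 8.32, and in the WT libraries 7.93, 8.03, 8.07 and 8.00. The groups did not overlap, but the log2 fold change of 0.32 ± 0.0709 (SE) was below 1.5 fold, with an FDR of 0.00667. At 4 months the rTg4510 libraries stood at 9.43, 9.47 and 9.63 and the WT libraries at 8.11, 8.19 and 7.96. The difference was 1.42 ± 0.0818 (2.68 fold, FDR = 7.64e-11). It was 1.57 ± 0.0709 at 6 months and 1.49 ± 0.0818 at 8 months, and the groups were apart at each of these ages. WT signals kept within a range from 7.87 to 8.19 over all 14 libraries.

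Egln3, the inducible prolyl hydroxylase PHD3 and itself a textbook HIF target, moved from the floor of the measurement. All 14 WT libraries lay within 3 counts of the lowest value of their library, a reading inferred from the steps of the low values, and their signals ran from 2.13 to 2.92. In rTg4510 the signals were 3.45, 2.96, 3.39 and 3.77 at 2 months, 5.65, 5.65 and 5.14 at 4 months, 5.66, 6.03, 5.97 and 5.76 at 6 months, and 5.34, 5.82 and 5.90 at 8 months. The lowest rTg4510 library of any age was above the highest WT library. The fitted log2 fold changes of 3.24 ± 0.233, 3.29 ± 0.202 and 3.03 ± 0.233 at 4, 6 and 8 months (FDR = 1.82e-09, 7.24e-11 and 3.93e-09) depend on values at the floor. With each WT library set to 3 counts, the differences were 2.37, 2.61 and 2.54, or 5.17, 6.10 and 5.82 fold. At 2 months 2 of the 4 rTg4510 libraries were near the floor too, so no fold is given for the call made there (FDR = 0.00589). That call did not pass in a fit of all 32 libraries (FDR = 0.133) or with same-numbered libraries as a replicate block (FDR = 0.0513). It also missed with the 2 groups of the age alone (FDR = 0.142).

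Egln1, which encodes PHD2, the main hydroxylase acting on HIF-1α, was called at no age. Its log2 fold changes were -0.07, -0.13, 0.20 and 0.13 with SE of 0.121 to 0.140, its groups overlapped at every age, and FDR values were 0.207 or more. Bnip3, a mitophagy receptor and HIF target, passed at 6 months only. There the rTg4510 libraries read 6.21, 6.22, 6.05 and 5.93 and the WT libraries 4.76, 5.62, 5.5 and 5.34 (log2 fold change 0.80 ± 0.143, FDR = 0.000153). At 4 and 8 months its rTg4510 libraries were also all above the WT libraries, with differences of 0.33 ± 0.166 (FDR = 0.164) and 0.51 ± 0.166 (FDR = 0.0267). Pseudogene copies share 9.41% of the 100-base words of its transcript.

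**Figure D2:**
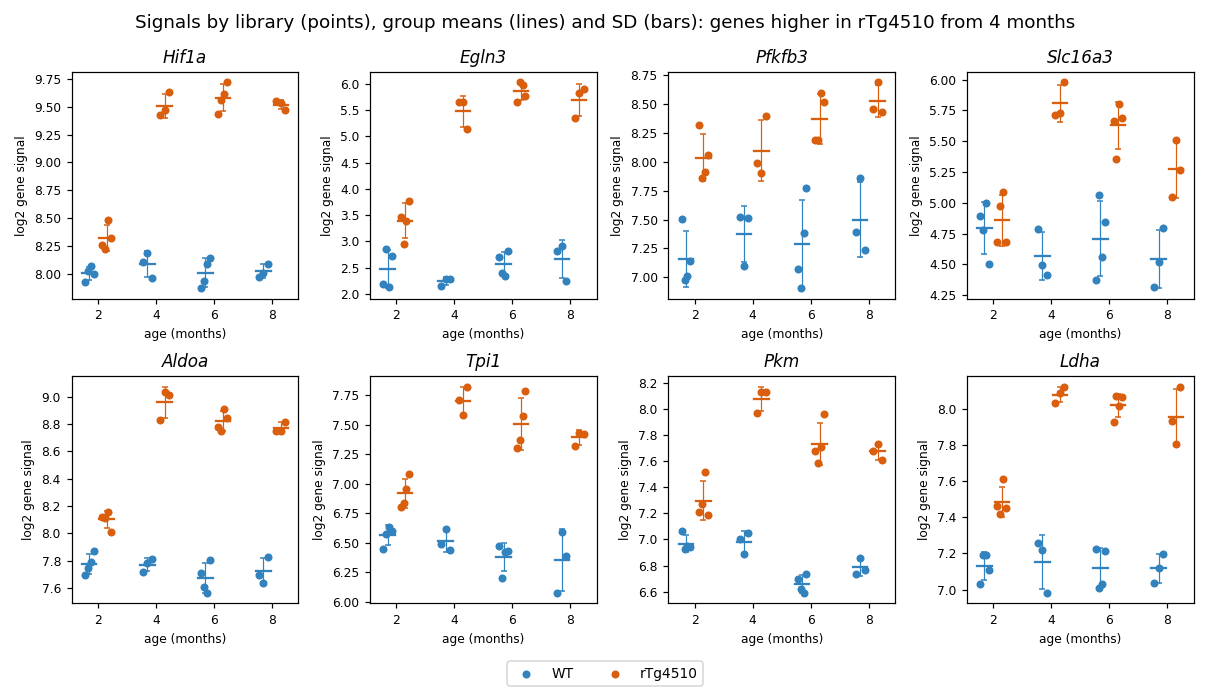
Log2 gene signal (vertical axis, scaled separately for each gene) against age in months for 8 genes, with 1 point per library, the group mean as a line and the SD as a bar. From 4 months on every rTg4510 library lay above every WT library of its age for these genes. At 2 months this already held for all of them but Slc16a3, and Pfkfb3 and, near the floor, Egln3 were called.

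At the entry of the pathway the differences were small. Slc2a1, the glucose carrier GLUT1 of many cell types including brain endothelium, reached log2 fold changes of 0.38 ± 0.128 at 4 months and 0.53 ± 0.111 at 6 months (FDR = 0.0337 and 0.000776), both below 1.5 fold. At 8 months the difference was 0.28 ± 0.128 (FDR = 0.12). The summed signal of 5 endothelial markers had medians of 7.35 and 7.06 in rTg4510 at 4 and 6 months and 8.01 and 7.51 in WT, but its 5 members were not alike. Flt1 was up-regulated at 4, 6 and 8 months (0.98 ± 0.28, 1.89 ± 0.242 and 1.17 ± 0.28), Pecam1 was down-regulated at these ages and Cdh5 at 6 months. The part of endothelial RNA in the Slc2a1 values was not tested.

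None of the 3 hexokinases, which trap glucose in the cell as its phosphate, was a DEG. Hk2, the inducible isoform, differed by 0.10 to 0.15 at the 4 ages, with SE of 0.102 to 0.117 and FDR of 0.398 or more. Hk1 differed by -0.22 at 4, 6 and 8 months (FDR = 0.138, 0.0652 and 0.135). Hk3, an isoform of myeloid blood cells, was lower in rTg4510 by 0.38 ± 0.106 at 6 months (log2 fold change -0.38, FDR = 0.00752) and by 0.39 ± 0.122 at 8 months (-0.39, FDR = 0.0215), short of 1.5 fold. Its 6-month signals were 4.88, 4.83, 5.10 and 4.85 in rTg4510 and 5.16, 5.19, 5.45 and 5.41 in WT. Markers of neutrophils moved the same way: 4 of 5 were down-regulated at 6 and at 8 months, and the median of their summed signal at 6 months was 7.64 in rTg4510 and 9.68 in WT. Their part in the Hk3 difference was not tested.

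Gpi1, the isomerase that follows the hexokinases, was up-regulated by 0.90 ± 0.0751, 1.0 ± 0.065 and 0.91 ± 0.0751 at 4, 6 and 8 months (FDR = 1.57e-08, 1.62e-10 and 9.13e-09). At 6 months its rTg4510 libraries were within 7.33 to 7.46 and its WT libraries within 6.28 to 6.51. The phosphofructokinase subunits, which form the committed step, are given in turn. Pfkl was up-regulated at 4 months, where 5.99, 5.96 and 5.72 in rTg4510 stood above 5.20, 5.21 and 5.23 in WT (0.68 ± 0.111, FDR = 8.6e-05), though not in a fit of all 32 libraries (FDR = 0.129). Its difference was 0.41 ± 0.0961 at 6 months (FDR = 0.00229) and 0.26 ± 0.111 at 8 months (FDR = 0.0883). Pfkm and Pfkp overlapped between genotypes at every age, with log2 fold changes from -0.37 to 0.12.

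Pfkfb3, whose product makes the fructose 2,6-bisphosphate that activates phosphofructokinase, was the only member other than Egln3 called at 2 months. The 4 rTg4510 libraries read 8.32, 7.86, 7.91 and 8.06 and the WT libraries 7.50, 6.97, 7.01 and 7.14. The log2 fold change was 0.88 ± 0.186 at that age (1.84 fold, FDR = 0.00453), then 0.72 ± 0.215, 1.09 ± 0.186 and 1.03 ± 0.215 at 4, 6 and 8 months. The 4-month call was lost without rTg4510 replicate 4 (FDR = 0.101) or WT replicate 2 (FDR = 0.0952) of that age. Its difference did not grow significantly from 2 to 4 months (-0.16 ± 0.284, 95% interval -0.75 to 0.43).

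Aldoa, the main aldolase outside liver, and Tpi1, the triose phosphate isomerase, moved together. Aldoa signals at 4 months were 8.83, 9.04 and 9.01 in rTg4510 and 7.72, 7.78 and 7.81 in WT. Its log2 fold change was 0.33 ± 0.0575 at 2 months (FDR = 0.00097, below 1.5 fold) and 1.19 ± 0.0664, 1.15 ± 0.0575 and 1.05 ± 0.0664 at the later ages (FDR = 4.9e-11, 3.83e-12 and 2.57e-10). Tpi1 signals at 4 months were 7.71, 7.58 and 7.82 in rTg4510 and 6.49, 6.62 and 6.44 in WT, and its differences were 1.19 ± 0.122, 1.13 ± 0.105 and 1.04 ± 0.122. Neither gene's groups overlapped at any age.

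Aldoc, the brain aldolase that is abundant in astrocytes, ran the other way without passing the test. Its log2 fold changes were -0.17, -0.73, -0.75 and -1.28 at the 4 ages with SE of 0.583 to 0.673, and no FDR was below 0.181. At 8 months its signals were 5.5, 3.76 and 3.38 in rTg4510 and 7.20, 5.17 and 4.13 in WT. The library with 7.20 is the WT replicate 1 that also held the highest astrocyte sum (11.09), and the rTg4510 replicate 1 with 5.5 held the highest astrocyte sum of its group (9.24). Without that WT library the 8-month difference was -0.43 ± 0.637 (FDR = 0.693), and without that rTg4510 library it was -1.93 ± 0.698 (FDR = 0.0534). The part of astrocyte RNA in the Aldoc values was not tested.

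**Figure D3:**
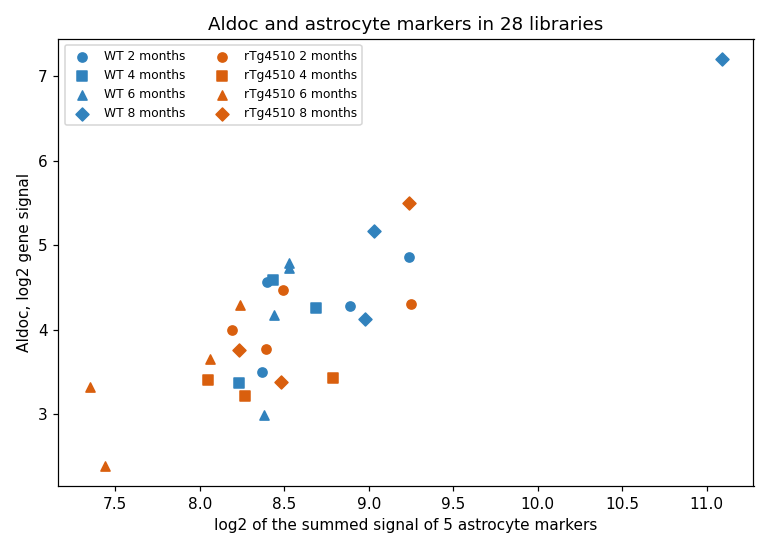
Log2 signal of Aldoc (vertical axis) against the log2 of the summed signal of 5 astrocyte markers (horizontal axis) in 28 libraries, with colour for genotype and symbol for age. The WT library at the upper right, the 8-month replicate 1, read 7.20 and 11.09.

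All 5 genes of lower glycolysis were up-regulated at 4, 6 and 8 months. Gapdh, the glyceraldehyde phosphate dehydrogenase often used as a reference gene, stood at 8.58, 8.54 and 8.88 in rTg4510 and 7.58, 7.53 and 7.47 in WT at 4 months. Its log2 fold changes were 1.14 ± 0.105, 1.15 ± 0.0906 and 1.04 ± 0.105 at 4, 6 and 8 months. Pgk1, the first ATP-forming enzyme of the pathway, changed by 1.29 ± 0.102, 1.14 ± 0.088 and 0.97 ± 0.102. Pgam1, the phosphoglycerate mutase, changed by 0.98 ± 0.127, 0.95 ± 0.11 and 0.78 ± 0.127. Eno1, the enolase, changed by 0.84 ± 0.0839, 0.82 ± 0.0727 and 0.65 ± 0.0839, and Pkm, the pyruvate kinase, by 1.10 ± 0.0846, 1.07 ± 0.0733 and 0.89 ± 0.0846. The FDR of these 5 genes was 6.58e-05 or lower at the 3 ages, and every rTg4510 library lay above every WT library.

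Several of these genes share sequence with other genes. Of the 100-base words in the longest coding transcript of Gapdh, 78.0% also occur in transcripts of other genes (GENCODE release M21), and the share was 67.0% for Pgk1, 59.0% for Eno1, 39.7% for Pgam1 and 9.82% for Pkm. At least 20% of the 31-base words of 100 other genes, 97 of them pseudogenes, occur in transcripts of Gapdh. Of the 62 copies with a row in the table, 52 were higher in rTg4510 at 6 months (beside 8668 of all 18588 genes). Their log2 fold changes ran from -1.56 to 1.31. The 10 copies with at least 95% of their own words in Gapdh differed by 1.18 to 1.31 at 6 months. The 2 such copies of Pgk1 differed by 1.23 and 1.24, and the 1 such copy of Pgam1 by 0.87. The mean WT signals of these copies were 8.93 to 12.56 for Gapdh, 10.16 for Pgk1 and 12.01 for Pgam1. In the rows of the genes themselves, the WT group means were 7.43 to 7.53, 5.18 to 5.29 and 7.01 to 7.11. The rows of the copies may hold reads of Gapdh, Pgk1 and Pgam1 themselves, which was not tested, so they are not separate evidence. Reads from a stretch that a gene shares with a copy cannot be told apart, how reads matching several genes were counted is not given in the sources used here, and the values of Gapdh, Pgk1, Eno1 and Pgam1 are uncertain in that respect. Of the other genes up-regulated at 4, 6 and 8 months, Aldoa, Pfkfb3, Slc16a1, Slc16a3 and Egln3 share none of their 100-base words. Tpi1 shares 0.796%, Hif1a 1.12%, Ldha 1.28% and Gpi1 4.92%. The hexokinases, Pfkm, Pfkp, Aldoc, Slc2a1, Egln1, Pdk1, Pdha1, Pgls, Pgd, Tkt and Taldo1 share none either and were called at no age. Pfkl and Pdk3, which also share none, were called at 1 age each. The part of shared reads in the differences was not tested.

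**Figure D4:**
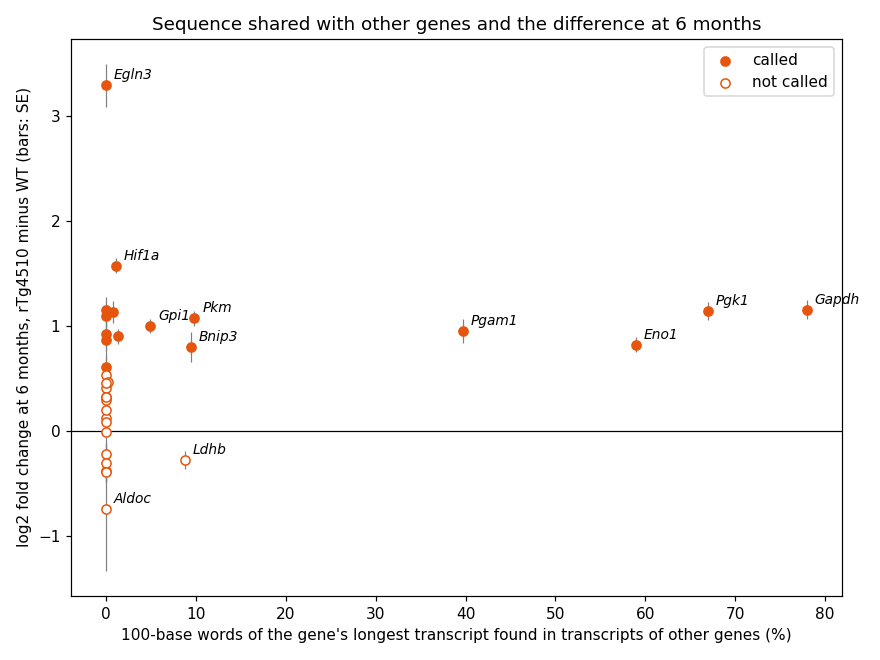
Log2 fold change at 6 months with SE (vertical axis) against the percentage of 100-base words of each gene's longest coding transcript that occur in other genes (horizontal axis), for 33 genes. DEGs (filled) are found both at 0% and at 39.7% to 78.0%, and the genes that were not called lie at 8.8% or less.

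Over the 9 genes Gpi1, Aldoa, Tpi1, Gapdh, Pgk1, Pgam1, Eno1, Pkm and Ldha, which were picked because each was called at 4, 6 and 8 months and which leave out the phosphofructokinase step, the values are given as a description. The log2 fold changes lay between 0.25 and 0.45 at 2 months, 0.84 and 1.29 at 4 months, 0.82 and 1.15 at 6 months, and 0.65 and 1.05 at 8 months. At 2 months 8 of the 9 had an FDR under 0.05 and none reached 1.5 fold. The mean signal of the 9 genes was 6.67 ± 0.0566 (SD, n = 4) in WT and 7.02 ± 0.0989 in rTg4510 at 2 months. It was 6.67 ± 0.00467 and 7.74 ± 0.1 at 4 months (n = 3), 6.59 ± 0.069 and 7.63 ± 0.104 at 6 months (n = 4), and 6.61 ± 0.0444 and 7.52 ± 0.0325 at 8 months (n = 3).

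The pair of lactate dehydrogenase genes differed in direction. Ldha, whose subunit favours the formation of lactate, was up-regulated by 0.92 ± 0.0819, 0.90 ± 0.0709 and 0.84 ± 0.0819 at 4, 6 and 8 months. Its 4-month signals were 8.03, 8.09 and 8.12 in rTg4510 and 7.26, 7.22 and 6.98 in WT. Ldhb, whose subunit favours the return of lactate to pyruvate, was lower in rTg4510 at 6 months (-0.28 ± 0.0859, FDR = 0.0152) and at 8 months (-0.29 ± 0.0992, FDR = 0.0355), below 1.5 fold. Its 8-month signals were 7.49, 7.81 and 7.77 in rTg4510 and 7.99, 7.84 and 8.11 in WT, close together but not overlapping.

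Both monocarboxylate carriers of the list were DEGs. Slc16a3, the lactate exporter MCT4 and a known HIF target, differed by 0.06 ± 0.158 at 2 months (FDR = 0.914, 95% interval -0.27 to 0.39), where its groups overlapped. At 4 months its signals were 5.71, 5.73 and 5.98 in rTg4510 and 4.79, 4.5 and 4.42 in WT, a log2 fold change of 1.24 ± 0.182 (FDR = 2.3e-05). The difference was 0.92 ± 0.158 at 6 months and 0.73 ± 0.182 at 8 months. Slc16a1, the bidirectional carrier MCT1, passed narrowly, with 0.78 ± 0.276 at 4 months (FDR = 0.0474), 0.86 ± 0.239 at 6 months (FDR = 0.00807) and 0.76 ± 0.276 at 8 months (FDR = 0.048). Its 4-month groups overlapped, with an rTg4510 library at 4.93 and a highest WT value of 5.03. Its calls at 4 and 8 months were lost in 19 and 20 of 28 refits without a single library. Both were also lost with same-numbered libraries as a replicate block (FDR = 0.0952 and 0.0954).

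The genes that set the entry of pyruvate into mitochondria moved in different directions. Pdk3, a pyruvate dehydrogenase kinase, was up-regulated at 6 months, with 5.28, 5.65, 5.68 and 5.75 in rTg4510 and 5.08, 4.84, 4.92 and 5.10 in WT (0.61 ± 0.105, FDR = 1e-04). At 4 and 8 months it was higher by 0.39 ± 0.121 and 0.41 ± 0.121, below 1.5 fold. Pdk1, the kinase that HIF-1 is known to induce, was instead lower in rTg4510 at 2, 6 and 8 months, with log2 fold changes of -0.34 ± 0.0929, -0.39 ± 0.0929 and -0.41 ± 0.107 (FDR = 0.0316, 0.00232 and 0.00599). At each of these ages its rTg4510 libraries were all below the WT libraries, and at 4 months the groups overlapped (-0.09 ± 0.107, FDR = 0.61). Pdha1, which encodes the subunit that these kinases phosphorylate, differed by -0.03 to 0.32 and by no FDR under 0.129.

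In the pentose phosphate pathway 4 of the 5 genes were higher in rTg4510 by less than 1.5 fold. G6pdx, the glucose 6-phosphate dehydrogenase that forms NADPH, was apart at every age, with log2 fold changes of 0.30 ± 0.0711, 0.39 ± 0.0821, 0.46 ± 0.0711 and 0.44 ± 0.0821 (FDR = 0.0119, 0.0013, 2.4e-05 and 0.000305). Its 6-month signals were 7.82, 7.76, 7.83 and 7.82 in rTg4510 and 7.37, 7.31, 7.37 and 7.34 in WT. Tkt, the transketolase that links the branch back to glycolysis, was higher by 0.39 ± 0.0644, 0.32 ± 0.0558 and 0.48 ± 0.0644 at 4, 6 and 8 months (FDR = 9.23e-05, 0.00012 and 6.1e-06). Pgls, the lactonase, was higher by 0.56 ± 0.178, 0.45 ± 0.154 and 0.53 ± 0.178, and Pgd, the second NADPH-forming enzyme, by 0.29 ± 0.101 at 6 and 0.39 ± 0.116 at 8 months. Taldo1, the transaldolase, differed by 0.08 to 0.20 with FDR of 0.0886 or more.

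**Figure D5:**
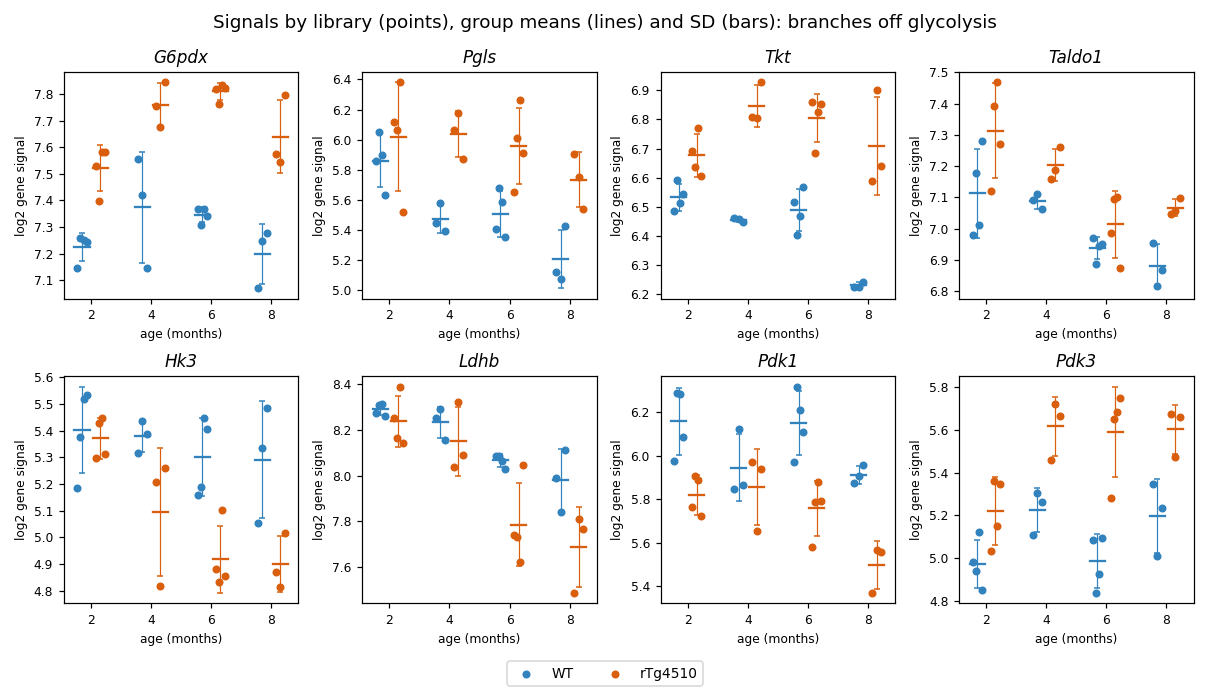
Log2 gene signal (vertical axis, scaled separately for each gene) against age in months for 8 genes that branch off the main chain, with 1 point per library, the group mean as a line and the SD as a bar. G6pdx was higher in every rTg4510 library than in every WT library of its age, the rTg4510 libraries of Hk3 all lay below the WT libraries from 4 months on (FDR = 0.104 at 4 months), and no difference but that of Pdk3 at 6 months reached 1.5 fold with an FDR under 0.05.

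Whether the difference between genotypes grew with age was tested in the same fit. From 2 to 4 months it grew in 10 of the 33 genes (FDR under 0.05 and over 1.5 fold, beside 3.77% of all genes) and shrank in none (beside 0.893%). These were Egln3 (2.32 ± 0.308), Slc16a3 (1.18 ± 0.241), Hif1a (1.10 ± 0.108), Pgk1 (0.89 ± 0.134), Aldoa (0.86 ± 0.0878), Tpi1 (0.84 ± 0.161), Pkm (0.77 ± 0.112), Gapdh (0.69 ± 0.138), Pgam1 (0.65 ± 0.168) and Gpi1 (0.64 ± 0.0993). The size for Egln3 again rests on values at the floor. In a fit of all 32 libraries 6 of these passed, and Aldoa, Tpi1, Gapdh and Pgam1 did not (FDR = 0.0706, 0.429, 0.107 and 0.0515). Ldha and Eno1 had growth of 0.57 ± 0.108 and 0.49 ± 0.111 at FDR of 0.00224 and 0.00909, below 1.5 fold, so that by the FDR alone 12 members showed growth and none shrinkage (beside 5.26% and 2.08% of all genes). From 4 to 6 months no member passed (0 by limma, beside 0.0377% of all genes growing and 0.118% shrinking), 2 having an unadjusted p under 0.05, namely Bnip3 (0.46 ± 0.219) and Pdk1 (-0.30 ± 0.142). From 6 to 8 months no member and 0% of all genes passed, and 0 members had an unadjusted p under 0.05. These last tests share the libraries of 4 or of 6 months with the neighbouring test.

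Between 8 and 2 months within a genotype, 5 members rose in rTg4510 (beside 5.72% of all genes): Egln3 (2.29 ± 0.218), Hif1a (1.19 ± 0.0766), Pfkp (0.77 ± 0.205), Gpi1 (0.71 ± 0.0702) and Aldoa (0.67 ± 0.0621). The rise of Pfkp did not pass in a fit of all 32 libraries (0.57, FDR = 0.206). None fell (beside 4.78%). In WT none rose (beside 0.533%), and Pgls fell by 0.65 on the log2 scale (± 0.166, FDR = 0.0303, beside 0.737% of all genes), a call lost without WT 2-month replicate 2 or 3 or WT 8-month replicate 1 or 2 (FDR = 0.0829, 0.0709, 0.12 and 0.122). Pfkp rose in rTg4510 but was not called against WT at 8 months, where WT stood at 4.64, 4.93 and 4.13 and rTg4510 at 4.62, 4.81 and 4.66. Its change in WT was 0.49 ± 0.205 (FDR = 0.189). Tkt was lower at 8 than at 2 months in WT (-0.30 ± 0.0602, FDR = 0.00849) and differed by 0.03 ± 0.0602 in rTg4510 (FDR = 0.771). Whether the change from 2 to 8 months differed between genotypes was not tested for any gene.

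Other genes of these pathways, which the 33 do not include, were taken from 7 lists with 124 names, 112 of them in the table. Of these 112, 2 were up-regulated at 2 months (1.79%, beside 1.58% of all genes), 11 at 4 months (9.82%, beside 9.47%), 13 at 6 months (11.6%, beside 11.3%) and 14 at 8 months (12.5%, beside 10.5%), shares near those of all genes. Down-regulated were 0, 3, 5 and 3 (0%, 2.68%, 4.46% and 2.68%, beside 0.403%, 4.33%, 8.54% and 5.37%). Their median log2 fold changes were 0.04, 0.02, 0.03 and 0.12. Several were called in 1 direction at 4, 6 and 8 months. Eno2, the neuronal enolase, had log2 fold changes of 1.31 ± 0.284, 1.78 ± 0.246 and 1.90 ± 0.284, while Eno3, the muscle enolase, was down-regulated at the same ages by -0.70 ± 0.121, -0.81 ± 0.105 and -0.84 ± 0.121. In Eno2 7 of the 14 WT libraries were near the floor, and with these set to 3 counts its differences were 1.26, 1.49 and 1.88. Slc2a6, a sugar carrier of lysosomes, was up-regulated from the floor, where 13 of its 14 WT libraries lay. With these set to 3 counts, its differences were 1.78, 1.52 and 1.94 at 4, 6 and 8 months. Slc2a5, the fructose carrier GLUT5 typical of microglia in brain, was down-regulated by -1.42 ± 0.165, -2.11 ± 0.143 and -2.53 ± 0.165. Arnt2, a partner of HIF-1α, changed by 1.14 ± 0.199, 1.36 ± 0.172 and 0.88 ± 0.199. Mif, a cytokine and HIF target, changed by 1.58 ± 0.12, 1.25 ± 0.104 and 1.17 ± 0.12. The list of other HIF targets that holds Mif has 25 genes in the table. Of these 25, 2, 5, 5 and 4 were up-regulated at 2, 4, 6 and 8 months (beside 1.58%, 9.47%, 11.3% and 10.5% of all genes). Down-regulated were 0, 0, 0 and 1 (beside 0.403%, 4.33%, 8.54% and 5.37%), and 20 were not called at each of 4, 6 and 8 months. Arrdc4, an arrestin that lowers glucose uptake, changed by 0.75 ± 0.104, 0.98 ± 0.0898 and 1.07 ± 0.104.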

How the data were processed

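Genotype, age and replicate number were taken from the labels of 32 microglia RNAseq libraries, 4 per genotype and age. The deposited values are log2 gene signals: the authors summed exon reads, dropped exons with low counts, combined exons into genes robustly and median normalized. The labels name the build GRCm38, and the aligner is not given in the sources used here. Of the 32 libraries 28 were compared, since the authors had excluded both replicate 3 libraries of 4 months and both replicate 4 libraries of 8 months.

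With limma 3.58.1 in R 4.3.3, the 8 group means were fitted to each of 18588 genes with unmoderated variance (20 residual degrees of freedom), after a test on simulated data. FDR is Benjamini-Hochberg adjusted over all genes of a contrast, and tests were two-sided. RefSeq (GRCm38.p6) named 95.9% of the Entrez numbers, and Python 3.11.15 handled sequences. Nothing was filtered, and 0 value columns were left unused. No read totals are given, so precision rests on 3 or 4 libraries per group. Of 21409 low values, 37.8% sit (within 0.003) at log2 of a whole count plus 1.5 and 29.7% midway between such steps, and a value within 3 counts of its library's lowest was taken as near the floor. Named are all 33 members, genes of the 7 other lists called in 1 direction at 4, 6 and 8 months, and markers where they bear on a result, except 1 listed gene that is not reported here. Members and lists were chosen with earlier results of these data known.

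Libraries with the same number deviated from their group means together at 6 months (r across genes of 0.131 to 0.153) and 8 months (0.15 to 0.291), and less so at 2 months (0.065 to 0.167) and 4 months (-0.1 to 0.124). With each gene scaled by its residual SD the lowest r was 0.095 at 6 and 0.134 at 8 months. The reported fit holds no block, and a fit with the replicate number as a block is given beside it where it changes a call. Alternatives were a moderated variance, all 32 libraries, the 2 groups of an age alone, a replicate block, quantile normalization, a filter on low means, the FDR alone, and each library left out in turn.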

Additional observations from a re-analysis of the deposited data

Results flagged for a closer look

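The difference between genotypes was larger at 4 than at 2 months of age in 10 genes, by the test of the difference itself: Gpi1 (0.64 on the log2 scale), Aldoa (0.86), Tpi1 (0.84), Gapdh (0.69), Pgk1 (0.89), Pgam1 (0.65), Pkm (0.77), Slc16a3 (1.18), Hif1a (1.10) and Egln3 (2.32).

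In the 4 libraries that the authors excluded, the median log2 difference of the 33 genes, rTg4510 minus WT, was 0.64 at 4 and 0.55 at 8 months. Of the genes called at 4 months in the other libraries 13 of 15 had the same direction, the exceptions being Pfkl (-0.09) and Slc16a1 (-0.24), and of those called at 8 months 14 of 14. The mean of the 9 genes from Gpi1 to Ldha was 7.34 in the excluded 4-month rTg4510 library and 6.25 in the WT library, a difference of 1.09, and 7.29 and 6.37 in the excluded libraries of 8 months, a difference of 0.92. Egln3 read 6.97 and 2.36 at 4 months and 6.54 and 2.29 at 8 months in rTg4510 and WT. With 1 library per group these differences have no replicate check. The share of all genes that kept their direction in these libraries was not computed, so the counts of called genes are only a description.

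In groups of 4, a library stood far from the other 3 in 5 of 132 gene and group combinations, where chance flags about 1 in 20. Hk1 was high in the 2-month rTg4510 replicate 3 (5.07, the others 4.92 to 4.94), Gapdh in the 2-month WT replicate 4 (7.63, the others 7.38 to 7.41) and Pkm in the 2-month WT replicate 1 (7.06, the others 6.93 to 6.95). Pdha1 was low in the 6-month WT replicate 3 (4.87, the others 5.14 to 5.16) and G6pdx in the 2-month WT replicate 1 (7.14, the others 7.24 to 7.26).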

How the results depend on the processing

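No fold change of a called member reversed under the alternatives run. At 2 months 1 gene (Pfkfb3) was called instead of 2 with all 32 libraries, with the 2 groups of the age alone, with the replicate block and with the filter on low means, which removes Egln3, Aldoc, Pfkm and Pfkp. By the FDR alone 12 genes were higher and 1 was lower at 2 months, and 3 were lower at 6 and 3 at 8 months. With all 32 libraries the difference grew from 2 to 4 months in 6 genes, and between 8 and 2 months 0 genes fell in WT and 1 in rTg4510. The filter left 3 genes that rose in rTg4510. Without both replicate 1 libraries of 8 months, chosen after the data had been seen, 0 genes fell in WT.

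Leaving out each of the 28 libraries gave 2 to 2, 14 to 15, 15 to 16 and 13 to 14 genes up-regulated at 2, 4, 6 and 8 months, 0 to 1 down-regulated at 8 months (Aldoc, without WT replicate 3), 8 to 11 with growth from 2 to 4 months, 0 to 1 that fell in WT, and 5 to 8 that rose and 0 to 1 that fell in rTg4510 between 8 and 2 months. The 8 came without rTg4510 2-month replicate 3 and included Gapdh, Pgam1 and Pgk1, and the gene that fell was Ldhb, without rTg4510 8-month replicate 2 or 3. Pdk3 dropped under 1.5 fold at 6 months without rTg4510 replicate 3 or 4 or WT replicate 2 (0.58, 0.55 and 0.56), and the growth of Pgam1 did so without rTg4510 2-month replicate 2 (0.58), rTg4510 4-month replicate 4 (0.52) or WT 4-month replicate 1 (0.56). That of Gpi1 did so without rTg4510 4-month replicate 4 (0.58).

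With the replicate block, 14, 16 and 13 genes were up-regulated at 4, 6 and 8 months, the calls lost being those of Slc16a1, and 10 showed growth from 2 to 4 months. With the 2 groups of an age alone, Pfkfb3 (FDR = 0.118 at 4 and 0.0525 at 8 months), Slc16a1 (0.269 and 0.0934) and Slc16a3 (0.0956 at 8 months) missed the threshold. The causes were not tested. The number of libraries and, for Egln3, the floor limit what can be seen.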
